A study of Mus musculus with 6 samples.

Results

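Matricellular proteins are secreted into the extracellular matrix, where they mostly bind cell receptors, growth factors and proteases and do little to bear load. Fibronectin and fibrillin form the fibers to which several of them attach. In mammary tumors these genes are known products of fibroblasts, macrophages and carcinoma cells, and they belong to the matrix that builds up in fibrosis. The 10 genes described here were Sparc, Spp1, Postn, Tnc, Thbs1, Thbs2, Fn1, Ccn1, Ccn2 and Fbn1, chosen by name as a set of matricellular and fibrillar glycoproteins, with earlier results of these data known. They were 10 of the 54532 gene IDs in the RNAseq tables, and all 10 passed the filter on low values that left 15069 genes.

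RNAseq was done on mammary tumors of NeuT/ATTAC mice, 3 from mice given an isotype-matched IgG antibody and 3 from mice given an anti-PD-1 antibody. NeuT/ATTAC mice carry an Erbb2 transgene under the MMTV promoter, which drives it in mammary epithelium, and the FAT-ATTAC transgene, which lets the drug AP20187 kill adipocytes. The FAT-ATTAC mice had been moved from the C57BL/6 background into FVB before the cross. To induce fibrosis, both groups were given AP20187 at 0.4 mg/kg, starting at 6 weeks of age, on a schedule that the labels call biweekly and the methods triweekly, and 100 μg antibody 2 times a week from 8 weeks of age, so no sample lacked fibrosis induction and none was antibody-free. The labels do not say whether each tumor came from a different mouse, and a legend of the study describes the RNA as pooled within a group. The p-values therefore measure the spread between these 3 libraries per group, which may be partly technical.

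Values were FPKM, read counts scaled to library size and gene length, so that levels can be compared between genes. The whole reads behind them summed to between 21320856 and 24165704 per tumor, and the fewest reads behind any member's value were 647, for Thbs2 in IgG 2, so counting error was small beside the differences between tumors. Epcam, an epithelial marker, stood between 689.9 and 1149.9 FPKM in the 6 tumors, and Krt5, a basal marker, at 2.44 FPKM or less. Skeletal muscle markers, as a sum, separated the tumors without regard to treatment, though Mb alone did not follow. Their summed FPKM was 167 in IgG 2, 178 in anti-PD-1 2 and 86.7 in anti-PD-1 1, against 8.40 to 10.5 in the other tumors.

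The members are protein-coding genes that lie apart in the mouse genome (GRCm38, GENCODE M21), and each value covers the exons of the whole gene. On the minus strand are Sparc at chr11:55394500-55423183, Tnc at chr4:63959785-64047015, Thbs2 at chr17:14665500-14694235, Fn1 at chr1:71585520-71653200, Ccn1 at chr3:145646976-145649981 and Fbn1 at chr2:125300594-125507993. On the plus strand are Spp1 at chr5:104435118-104441050, Postn at chr3:54361109-54391037, Thbs1 at chr2:118111876-118127133 and Ccn2 at chr10:24595442-24598683. Thbs1 and Fbn1 share a chromosome, as do Postn and Ccn1. Genes that overlap Tnc, Thbs1, Fn1, Ccn2 or Fbn1 on the opposite strand had at most 0.228 FPKM in any tumor.

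The members covered a wide range of levels. Spp1 (osteopontin, an integrin and CD44 ligand) had the highest mean over the 6 tumors at 2564 FPKM, and Fbn1 (fibrillin-1, the main protein of microfibrils) the lowest at 6.76 FPKM. Between them, in order of mean FPKM, stood Thbs1 at 113, Sparc at 95.1, Ccn1 at 33.2, Postn at 30.6, Ccn2 at 23.9, Fn1 at 16.1, Tnc at 14.8 and Thbs2 at 11.9. Spp1 exceeded Thbs1, Sparc exceeded Ccn1, Ccn2 exceeded Fn1 and Thbs2 exceeded Fbn1 in 6 of 6 tumors. The other 5 neighbors in the order changed places in at least 1 tumor: Postn exceeded Ccn2 in 5 of 6 tumors, Thbs1 exceeded Sparc and Tnc exceeded Thbs2 in 4, and Ccn1 exceeded Postn and Fn1 exceeded Tnc in 3. The order was set from the means of the same 6 tumors, so it is given as a description.

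The tumors differed from each other far more in these genes than in most. The residual SD within groups, on the log2(FPKM + 1) scale, had a median of 0.75 over the 10 members and of 0.27 over all genes tested, and each member lay between the 86.4 percentile (Thbs1) and the 99.6 percentile (Spp1) of all genes. Adding 1 lowers the SD of low genes, and by mean FPKM the members lay between the 55.5 (Fbn1) and 99.96 (Spp1) percentile. The SD was not compared with genes of matched level. The highest tumor exceeded the lowest 15.8-fold for Spp1, 6.34-fold for Fn1, 5.57-fold for Tnc and 5.06-fold for Thbs2, and between 2.34-fold (Thbs1) and 3.72-fold (Postn) for the remaining members. IgG 1 was above the 6-tumor mean in 10 of 10 members and anti-PD-1 1 in 9, whereas IgG 3 was above it in 1 and anti-PD-1 2 in 3. IgG 2 was above it in 4 and anti-PD-1 3 in 7. The median log2 deviation of the members was 0.57, -0.65 and -0.60 in the IgG-treated tumors. It was 0.62, -0.17 and 0.36 in the anti-PD-1-treated tumors. The lowest value fell in IgG 3 for 5 members, in IgG 2 for 4 and in anti-PD-1 2 for 1. Each group thus held a tumor with high members, whereas the lowest values lay mostly in IgG-treated tumors.

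**Figure D1:**
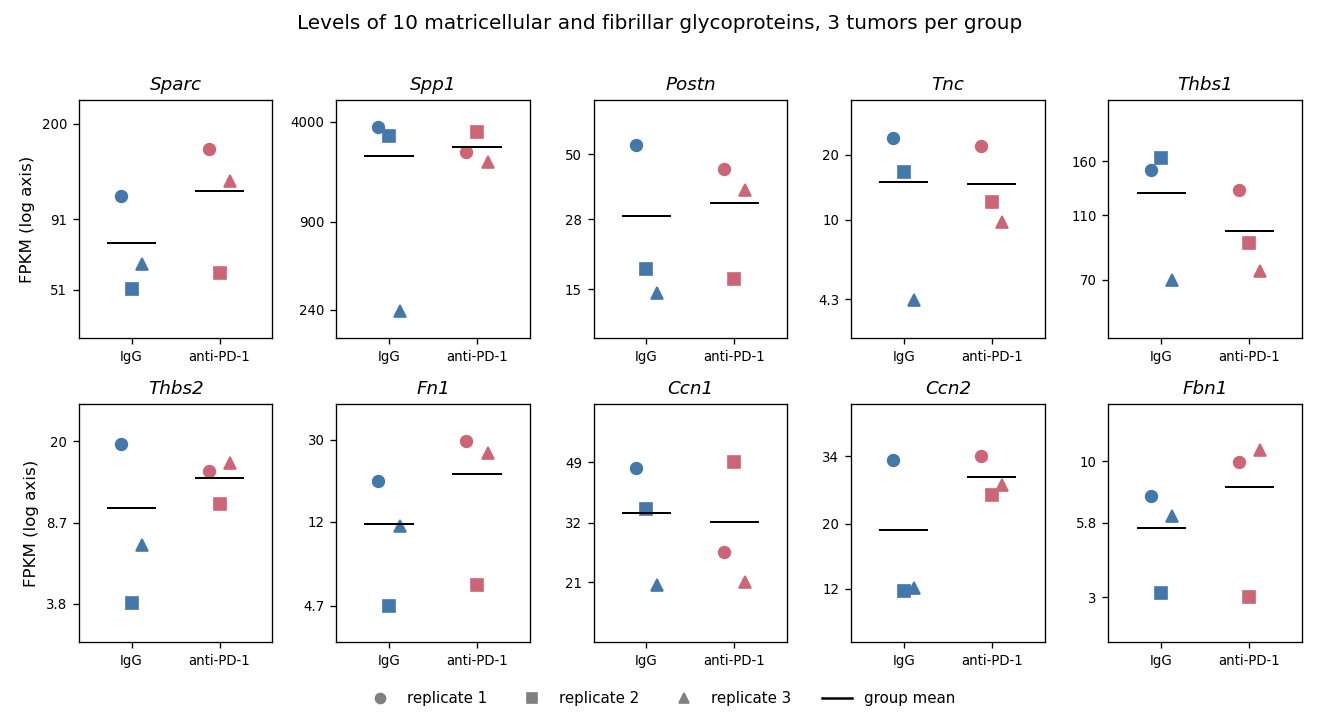
FPKM of each member (log axis) in the 3 IgG-treated tumors (blue) and the 3 anti-PD-1-treated tumors (red), with a shape for each replicate number and a line at the group mean. The groups overlap for 10 of 10 members, and Spp1 shows the single lowest point relative to its group, IgG 3 at 235 FPKM.

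To ask whether anti-PD-1 treatment went with a different level of these genes, the groups were compared by limma on log2(FPKM + 1) over all 15069 genes. The mean log2 value was higher in anti-PD-1-treated tumors for 8 members and lower for Thbs1 and Ccn1, in a table where 50.8% of all genes were higher. None of the 10 passed an adjusted p of 0.05, where the background was 0% of genes, and none passed an unadjusted p of 0.05, where it was 12.3%. The groups did not separate for any member, against 18.1% of all genes tested. The median log2 fold change was 0.47 over the members and 0.01 over all genes. The members' median was 0.19 without IgG 2, 0.20 without IgG 3, 0.21 without anti-PD-1 1, 0.79 without anti-PD-1 2 and 0.87 without IgG 1. An exact permutation test of 3 against 3 tumors cannot give a p under 0.1, and for single members it gave 0.3 to 1. By voom on the whole reads behind the FPKM values, 1 gene of the whole table passed an adjusted p of 0.05, and it was not a member.

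**Figure D2:**
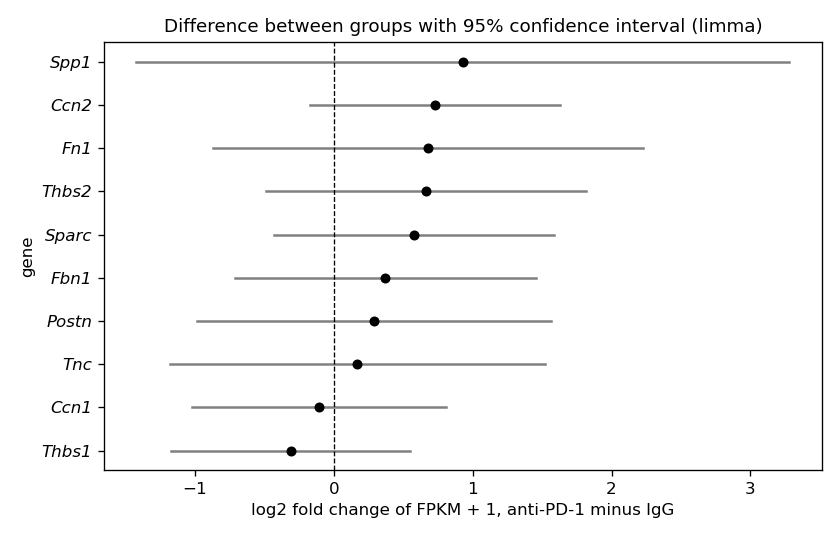
Log2 fold change of FPKM + 1, anti-PD-1-treated minus IgG-treated tumors (points), with the 95% confidence interval from limma (lines), for the 10 members. Each interval includes 0, and the widest belongs to Spp1, from -1.42 to 3.28.

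Among the collagen-binding and fiber-forming proteins, Sparc (osteonectin, which binds collagen and affects fibril assembly) measured 111, 51.4 and 62.9 FPKM in the IgG-treated tumors and 162, 58.5 and 125 FPKM in the anti-PD-1-treated tumors, each in the order of replicates 1, 2 and 3. The highest value was in an anti-PD-1-treated tumor, but anti-PD-1 2 lay below IgG 1 and IgG 3. The group means were 75.0 ± 31.4 and 115 ± 52.5 FPKM (SD, n = 3), a log2 fold change of 0.57 ± 0.43 (SE, limma adjusted p = 0.610). Fn1 (fibronectin, the fibrillar scaffold that cells bind through integrins) measured 18.9, 4.68 and 11.5 FPKM with IgG and 29.7, 5.95 and 25.9 FPKM with anti-PD-1. Again 2 anti-PD-1-treated tumors stood above the IgG group, and the third stood near its bottom. The log2 fold change was 0.68 ± 0.66 (SE, limma adjusted p = 0.698), with a 95% interval from -0.87 to 2.22. Fbn1 measured 7.33, 3.12 and 6.15 FPKM with IgG and 9.91, 3.02 and 11.02 FPKM with anti-PD-1, so that anti-PD-1 2 was the lowest of the 6 tumors. Its log2 fold change was 0.37 ± 0.46 (SE, limma adjusted p = 0.770). Without anti-PD-1 2 the groups no longer overlapped for Sparc, Fn1 and Fbn1, as for 28.4% of all genes in that fit, and their log2 fold changes were 1.00, 1.36 and 0.88 with adjusted p from 0.524 to 0.529. Other omissions lowered them: without IgG 2 the log2 fold change was 0.19 for Fn1 and 0.07 for Fbn1, and without anti-PD-1 1 it was 0.27 for Sparc, 0.29 for Fn1 and 0.15 for Fbn1.

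Postn (periostin, a fibroblast product that links collagen, tenascin and integrins) measured 54.1, 17.9 and 14.5 FPKM in the IgG-treated tumors and 44.0, 16.4 and 36.5 FPKM in the anti-PD-1-treated tumors. The IgG group held both the highest and the lowest value. The means were 28.8 ± 21.9 and 32.3 ± 14.3 FPKM (SD, n = 3), and the log2 fold change was 0.29 ± 0.54 (SE, limma adjusted p = 0.854), or -0.062 without IgG 3 and 0.85 without IgG 1. Tnc (tenascin-C, which modulates cell adhesion to fibronectin) measured 23.8, 16.7 and 4.28 FPKM with IgG and 21.9, 12.2 and 9.82 FPKM with anti-PD-1, so the IgG range enclosed the anti-PD-1 range. Its group means were 14.9 ± 9.89 and 14.6 ± 6.42 FPKM (SD, n = 3), lower with anti-PD-1, whereas the mean of log2 values was higher by 0.17 ± 0.58 (SE, limma adjusted p = 0.925). It turned to -0.49 without IgG 3 and to -0.15 without anti-PD-1 1. Tnc lies on chromosome 4, where the median log2 fold change of 926 tested genes was -0.40, against 0.01 for all genes.

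Of the thrombospondins, which bind CD36 and CD47, Thbs1 (also an activator of latent TGF-beta) measured 151, 164 and 70.0 FPKM with IgG and 131, 90.4 and 74.7 FPKM with anti-PD-1. IgG 3 lay below each anti-PD-1-treated tumor, and the other IgG-treated tumors lay above them. The log2 fold change was -0.31 ± 0.37 (SE, limma adjusted p = 0.755). Without IgG 3 it was -0.70 (adjusted p = 0.492), and the groups did not overlap, as for 28.9% of genes in that fit. It was -0.09 without IgG 2, -0.13 without anti-PD-1 3, -0.15 without IgG 1 and -0.54 without anti-PD-1 1. Thbs2 measured 19.5, 3.85 and 6.91 FPKM with IgG and 14.8, 10.5 and 16.1 FPKM with anti-PD-1, so that the anti-PD-1 group lay within the range of the IgG group. Its log2 fold change was 0.66 ± 0.49 (SE, limma adjusted p = 0.608). The ratio of Thbs1 to Thbs2 within a tumor, which does not depend on scaling between tumors, was 7.72, 42.5 and 10.1 with IgG and 8.89, 8.60 and 4.65 with anti-PD-1. The high value was that of IgG 2, and the mean log2 ratio differed by -1.07 (exact permutation p = 0.3, adjusted over 2 ratios 0.3), or by -0.32 without IgG 2.

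The CCN proteins Ccn1 and Ccn2 are small cysteine-rich ligands of integrins, and both genes are known targets of YAP and TEAD. Ccn1 measured 46.9, 35.2 and 20.6 FPKM with IgG and 25.9, 49.3 and 21.0 FPKM with anti-PD-1, with the highest and second lowest values both in the anti-PD-1 group. Its log2 fold change was -0.11 ± 0.39 (SE, limma adjusted p = 0.931), and it turned to 0.15 without IgG 1 and 0.14 without anti-PD-1 3. Ccn2 measured 33.1, 11.8 and 12.1 FPKM with IgG and 34.2, 25.1 and 27.1 FPKM with anti-PD-1. The 3 anti-PD-1-treated tumors were close together, and IgG 1 lay among them while IgG 2 and IgG 3 lay below. Ccn2 had the lowest adjusted p of the members, with a log2 fold change of 0.73 ± 0.38 (SE, limma adjusted p = 0.472). Without IgG 1 the groups did not overlap for Ccn2 and Thbs2, as for 35.5% of all genes in that fit, and the log2 fold changes were 1.196 (adjusted p = 0.0964) and 1.24 (adjusted p = 0.122). Without IgG 2 they were 0.49 and 0.20. The ratio of Ccn1 to Ccn2 was 1.42, 2.99 and 1.70 with IgG and 0.759, 1.96 and 0.777 with anti-PD-1, so Ccn2 exceeded Ccn1 only in anti-PD-1 1 and anti-PD-1 3. The mean log2 ratio differed by -0.88 (exact permutation p = 0.3, adjusted over 2 ratios 0.3), or by -0.57 without IgG 2 and -1.33 without anti-PD-1 2.

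Spp1 measured 3706, 3242 and 235 FPKM in the IgG-treated tumors and 2555, 3440 and 2208 FPKM in the anti-PD-1-treated tumors. It was among the 9 most abundant genes in 5 tumors and ranked 140 in IgG 3, where it made up 0.0783% of the summed FPKM, against 0.624% to 1.04% elsewhere. The log2 fold change was 0.93 ± 1.00 (SE, limma adjusted p = 0.731) and turned to -0.36 without IgG 3. IgG 3 also had the lowest summed macrophage markers, at 432 FPKM against 633 to 947 in the other tumors, and the lowest summed luminal epithelial markers, at 2315 FPKM against 2863 to 4093. Single markers did not all follow the sums. In IgG 3, Mertk (a macrophage marker) was second highest, at 3.31 FPKM, and Esrp1 (a luminal marker) was highest, at 49.8 FPKM. Adgre1 was lowest in anti-PD-1 2, at 5.28 FPKM. The part of these cell types in the low Spp1 was not tested, and in bulk tumors fewer cells of a type and less RNA per cell cannot be told apart. Gm42793 overlaps Spp1 on the same strand and had 0.458 to 5.76 FPKM, and how reads were split between them is not given in the sources used here.

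**Figure D3:**
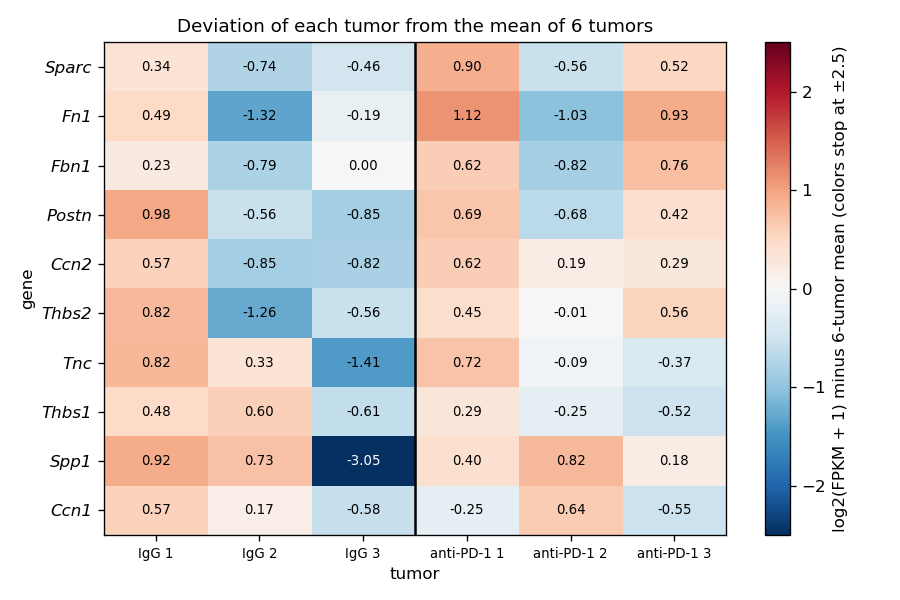
Deviation of each tumor from the mean of the 6 tumors, in log2(FPKM + 1), for each member, with a line between the IgG-treated and anti-PD-1-treated tumors. Sparc, Fn1 and Fbn1 are high in the same 3 tumors, IgG 1, anti-PD-1 1 and anti-PD-1 3, and Spp1 has the largest deviation, -3.05 in IgG 3.

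The members fell into tumors in different patterns, which were compared over 45 pairs with the 6 tumors as points. Sparc, Fn1 and Fbn1 followed each other, as did Thbs2 and Ccn2, and Tnc and Thbs1. These were not separate sets. Sparc and Postn had r = 0.89 (exact permutation p = 0.0792, adjusted 0.254) and rho = 0.6. Sparc and Thbs2 had r = 0.82 (exact permutation p = 0.0486, adjusted 0.227) and rho = 0.71. Pearson's r was above 0 in 37 pairs and below 0 in 8, with a median of 0.55, and 9 pairs had an unadjusted exact permutation p under 0.05 (2 without IgG 1 and 5 without anti-PD-1 3). No pair passed after adjustment over 45. Both values of a point come from the same library, so its depth and its mix of cells enter both genes of a pair.

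Sparc and Fn1 put the 6 tumors in the identical order (rho = 1, exact permutation p = 0.00278, adjusted 0.125), with r = 0.96 (exact permutation p = 0.00556, adjusted 0.125) and r = 0.94 without the 2 tumors farthest from the median of Sparc. Fn1 and Fbn1 had r = 0.98 (exact permutation p = 0.00556, adjusted 0.125), rho = 0.89 (exact p = 0.0333, adjusted 0.25) and r = 0.93 without the 2 farthest tumors. Thbs2 and Ccn2 had r = 0.93 (exact permutation p = 0.00972, adjusted 0.146) and rho = 0.83 (exact p = 0.0583, adjusted 0.292), with r = 0.68 without the 2 farthest tumors. Tnc and Thbs1 had r = 0.87 (exact permutation p = 0.0194, adjusted 0.175), rho = 0.83 (exact p = 0.0583, adjusted 0.292) and r = 0.83 without the 2 farthest tumors. The relation of Spp1 and Tnc rested on the 2 tumors farthest from the median of Spp1: its r was 0.86 (exact permutation p = 0.0333, adjusted 0.214), with rho = 0.77 (exact p = 0.103, adjusted 0.385), and -0.23 without them. Spp1 and Ccn1 had r = 0.67 (exact permutation p = 0.0236, adjusted 0.177) and rho = 0.94 (exact p = 0.0167, adjusted 0.25), with r = 0.94 without the 2 farthest tumors. For the close relatives, r was -0.08 for Thbs1 and Thbs2 (exact permutation p = 0.864, adjusted 0.950; rho = -0.03, exact p = 1, adjusted 1; r = 0.49 without the 2 farthest tumors) and 0.26 for Ccn1 and Ccn2 (exact permutation p = 0.550, adjusted 0.781; rho = 0.09, exact p = 0.919, adjusted 0.962; r = -0.27 without the 2 farthest tumors).

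**Figure D4:**
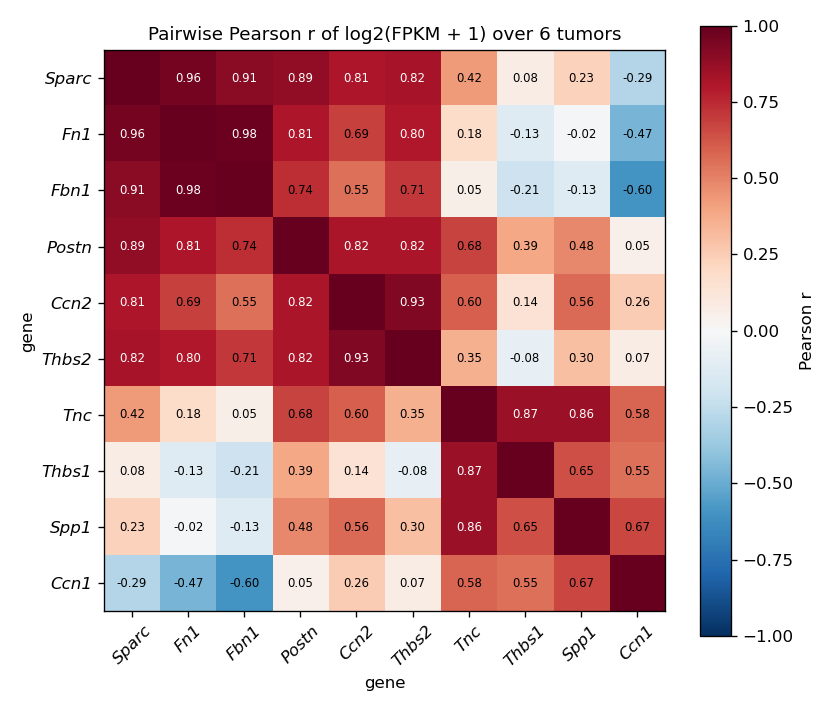
Pearson's r of log2(FPKM + 1) between each 2 members over the 6 tumors, from -1 (blue) to 1 (red). The block of Sparc, Fn1, Fbn1, Postn, Ccn2 and Thbs2 at upper left has r from 0.55 to 0.98, and Ccn1 has r from -0.60 to -0.29 with Sparc, Fn1 and Fbn1.

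The promoters of 2 pairs that ranked the tumors alike, Sparc with Fbn1 and Spp1 with Ccn1, are shown for comparison, as windows from 250 bases before to 50 after the start (RefSeq, GRCm38.p6). RefSeq entries were matched for 7 of the 10 members. Capitals mark TATAAA and the TEAD motif GGAATG, read on both strands, so that CATTCC is GGAATG on the other strand.
Sparc, chr11:55420031-55420330, minus strand: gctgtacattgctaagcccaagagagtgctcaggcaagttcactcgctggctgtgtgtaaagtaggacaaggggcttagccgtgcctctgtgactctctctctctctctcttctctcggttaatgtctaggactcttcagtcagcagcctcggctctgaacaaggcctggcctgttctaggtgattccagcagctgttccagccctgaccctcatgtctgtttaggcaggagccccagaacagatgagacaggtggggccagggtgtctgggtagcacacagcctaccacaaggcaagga
Fbn1, chr2:125506389-125506688, minus strand: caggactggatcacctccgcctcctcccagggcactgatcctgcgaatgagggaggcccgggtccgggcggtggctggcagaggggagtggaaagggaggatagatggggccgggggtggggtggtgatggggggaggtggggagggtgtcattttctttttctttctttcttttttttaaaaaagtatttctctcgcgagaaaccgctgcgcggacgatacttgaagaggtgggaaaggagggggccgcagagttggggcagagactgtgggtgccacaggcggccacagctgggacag
Spp1, chr5:104434861-104435160, plus strand: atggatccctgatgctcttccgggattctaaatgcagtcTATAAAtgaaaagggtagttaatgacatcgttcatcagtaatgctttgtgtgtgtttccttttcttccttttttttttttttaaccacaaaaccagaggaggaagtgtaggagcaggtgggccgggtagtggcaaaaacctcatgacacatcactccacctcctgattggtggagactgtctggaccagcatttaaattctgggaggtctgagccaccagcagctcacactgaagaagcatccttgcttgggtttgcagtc
Ccn1, chr3:145649936-145650235, minus strand: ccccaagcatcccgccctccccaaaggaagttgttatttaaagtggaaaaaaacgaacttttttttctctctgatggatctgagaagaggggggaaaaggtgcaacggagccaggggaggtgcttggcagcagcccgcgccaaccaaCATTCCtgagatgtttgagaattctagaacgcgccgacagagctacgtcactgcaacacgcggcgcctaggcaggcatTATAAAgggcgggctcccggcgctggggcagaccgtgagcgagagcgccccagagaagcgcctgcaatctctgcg
TATAAA holds the letters of a TATA box, which lies a short way before the start. It was found at -25 in Ccn1 and at -211 in Spp1, and in 13.6% of 32851 promoter windows. GGAATG was found at -103 in Ccn1 and in 14.7% of windows. Of the members not printed, Postn held TATAAA at -26, Thbs2 at -126 and Tnc at -126 and -205 in 2 overlapping windows, which is the same site. Counted by gene, 5 of the 7 members with a window held TATAAA in at least 1 window, against 15.7% of 27025 genes, and only in Ccn1 and Postn was it near the place of a TATA box. TGANTCA, the AP-1 motif, was in 7.81% of windows and the CArG box in 1.63%, and no member window held either. These matches are letters in a window and were not tested for binding.

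Each member's closest genes over the 6 tumors were sought among 7966 genes with a mean of at least 5 FPKM. With 6 points the best r lies near 1 for any gene, and over the members it ran from 0.981 to 0.999. Sparc was followed most closely by Col3a1 (r = 0.992), Ctsk (0.988) and Mfap5 (0.988), a collagen, a collagen-degrading protease and a microfibril protein. Fbn1 was followed by Cilp (0.990), Sh3d19 (0.981) and Fn1 (0.981), and Fn1 by Homer3 (0.997), Trmt1 (0.997) and Fstl1 (0.990). Postn was followed by Capn2, Aspn and Sft2d1, of which Aspn is a small collagen-binding proteoglycan. Thbs2 was followed by Col4a1 and Galns, Ccn2 by Senp3, Rem2 and Uchl5, Tnc by Pdlim5, Zfp954 and Actr10, and Thbs1 by Lims1, Rock2 and Vbp1. Spp1 was followed by Rnf34, Rabac1 and Med31, and Ccn1 by Fndc5, Arl6ip1 and Prkra.

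The 3 collagens among the fibroblast markers were high in the same tumors as Sparc, Fn1 and Fbn1, and the other markers less regularly so. The summed FPKM of the list was 255, 95.7 and 128 with IgG and 378, 104 and 229 with anti-PD-1, highest in anti-PD-1 1, IgG 1 and anti-PD-1 3, the tumors where those 3 members were also high. The 3 collagens of the list made up most of the sum. Without them the sum of the other 9 markers was 49.8, 45.8 and 42.3 FPKM with IgG and 83.3, 24.5 and 47.1 FPKM with anti-PD-1, high in anti-PD-1 1, low in anti-PD-1 2 and nearly level in the other tumors. Pdgfra was highest in IgG 3, at 2.497 FPKM, and Dcn was second highest in IgG 2, at 14.2 FPKM. The mean log2 value was higher with anti-PD-1 for 8 of 12 fibroblast markers, with none at an unadjusted p under 0.05 (12.3% of all genes) and a median log2 fold change of 0.11. Their part in the members' levels was not tested.

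**Figure D5:**
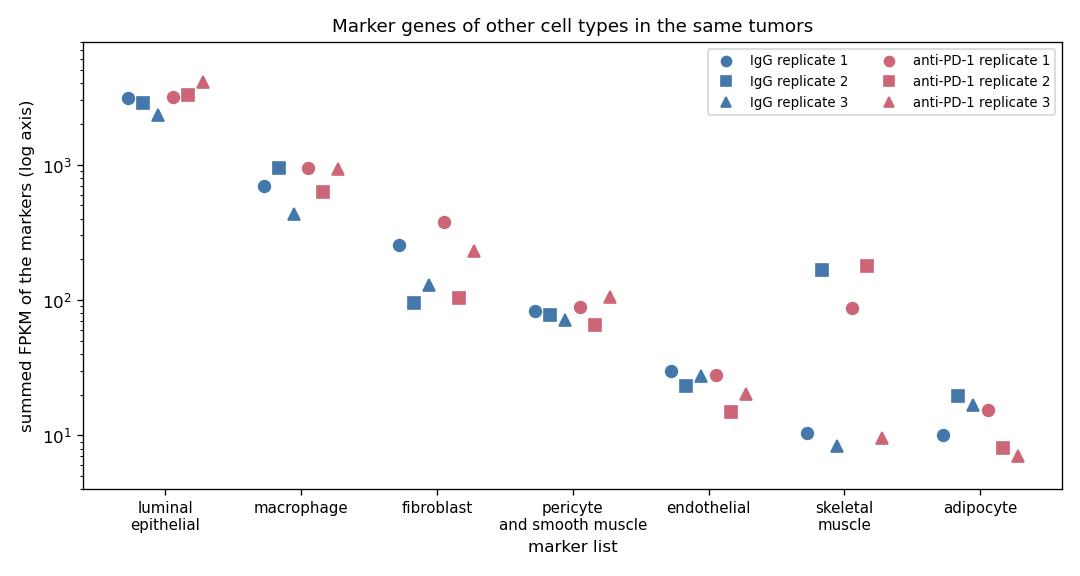
Summed FPKM (log axis) of the marker genes of 7 cell types in each tumor, with IgG-treated tumors in blue and anti-PD-1-treated tumors in red. The fibroblast sum, made up mostly of collagens, is high in IgG 1, anti-PD-1 1 and anti-PD-1 3. The skeletal muscle sum is high in IgG 2, anti-PD-1 1 and anti-PD-1 2.

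Genes related to the members were described from lists, as counts beside the 6.22% of all genes higher and 6.05% lower at an unadjusted p under 0.05. No gene of any list passed an adjusted p of 0.05. Of 23 matricellular relatives, 13 were tested, 10 had a higher mean log2 value and 3 a lower one, and 1 was higher at an unadjusted p under 0.05, with a median log2 fold change of 0.34. It was Comp (a thrombospondin of cartilage and tendon), which measured 125, 18.5 and 95.7 FPKM with IgG and 390.5, 196 and 522 FPKM with anti-PD-1. The groups did not overlap, and the log2 fold change was 2.47 ± 0.71 (SE, limma adjusted p = 0.344), or 1.64 without IgG 2. Of 19 microfibril and elastic fiber genes, 18 were tested, with a median of 0.29. Efemp1 (1.17), Mfap2 (0.90) and Mfap4 (0.75) were higher and Adamtsl2 (-1.63) lower, in log2 fold change, at an unadjusted p under 0.05 (limma adjusted p from 0.344 to 0.380). Leaving out 1 tumor moved Adamtsl2 to -0.99 (without IgG 3) and Mfap4 to 0.49 (without anti-PD-1 3), and Mfap2, Mfap4 and Adamtsl2 then had an unadjusted p of up to 0.0679, 0.109 and 0.0643.

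The receptors of the members showed no such gene: 16 of 18 were tested, 8 with a higher and 8 with a lower mean log2 value, none at an unadjusted p under 0.05, and the median was 0.01. Itgb1, the common fibronectin receptor chain, measured 235, 276 and 149 FPKM with IgG and 207, 153 and 211 FPKM with anti-PD-1, lowest in IgG 3 and next lowest in anti-PD-1 2. Cd44, which binds osteopontin, measured 29.0, 20.4 and 24.2 FPKM with IgG and 20.1, 23.9 and 47.9 FPKM with anti-PD-1. The highest value was in anti-PD-1 3, and the groups overlapped. Itgb1 and Cd44 were chosen after their values were seen, as textbook receptors.

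Other targets of pathways known to act on these genes were counted in the same way. Of 20 YAP and TEAD targets, 17 were tested, with a median of 0.03. Crim1 was higher (log2 fold change 1.02), and Ptpn14 (-1.06) and Amotl1 (-0.59) were lower, at an unadjusted p under 0.05. Of 12 TGF-beta early targets, each tested, Bhlhe40 (0.80) and Tgfb1 (0.98) were higher and Pmepa1 (-0.81) and Ski (-0.78) lower, with a median of 0.18. Of 16 immediate early genes, each tested, Egr2 (0.93) and Nr4a1 (1.07) were higher and none lower, with a median of 0.11. Limma's adjusted p for these 9 genes lay between 0.344 and 0.385. Without IgG 3, Ptpn14 was at -0.68 and Amotl1 at -0.38, and without IgG 2, Nr4a1 was at 0.62. Of the 9, only Crim1, Bhlhe40 and Egr2 kept an unadjusted p under 0.05 in each fit that left out 1 tumor.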

How the data were processed

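RNAseq of 6 tumors was re-analyzed from the FPKM tables that the authors deposited, with groups and replicate numbers from the labels. The submitters' processing notes name FastQC 0.11.9, cutadapt 3.5, Bowtie2 2.4.1, RSEM 1.3.1, DESeq2 1.36.0, R 4.1 and the build mm10. How FPKM was derived, and whether strand was counted, is not given in the sources used here. Of 54532 gene IDs, 54495 matched GENCODE M21 (GRCm38), which gave names, positions and exon lengths. FPKM times exon length fell within 0.1 of a whole read for 97.0% to 97.3% of detected values per tumor; summing these gave the reads per tumor.

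FPKM was divided by median-of-ratios factors (1.00 to 1.01), 1 was added and log2 was taken, so fold changes understate those of low genes. The 15069 genes whose mean FPKM reached 0.5 entered limma 3.58.1 in R 4.3.3, with an intensity trend, two-sided tests and Benjamini-Hochberg adjustment over all genes. Exact permutation tests (two-sided) used scipy 1.17.1. The procedure was tested on simulated reads with 200 of 14283 genes changed by a log2 fold of 2. It recovered 197 of them and made 16 false calls. The spread was fixed in the simulation and not taken from these tumors, so the outcome does not carry over to the members. Alternatives were a pseudocount of 0.1, no filter, a minimum of 2, FPKM as deposited, quantile normalization, no trend, a replicate block, voom on whole reads and leaving out each tumor. Named list genes were those with an unadjusted p under 0.05, at most 4 per list by p, and the 3 genes most like each member, of which 1 is not reported here. The members and lists were chosen with earlier results of these data known.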

Additional observations from a re-analysis of the deposited data

How the results depend on the processing

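Under the 8 settings that kept all 6 tumors, 80 of 80 member values kept their direction and their side of the threshold on adjusted p. Under a replicate block, 3 members (Fn1, Ccn2 and Sparc) had an unadjusted p under 0.05 (0.0222, 0.0337 and 0.0421), as did 11.4% of all genes, and 0 genes passed an adjusted p. Over all genes tested, the deviations of same-numbered tumors from their group means correlated at -0.16, 0.01 and 0.19. Of the IgG-treated tumors, only IgG 3 was closest to its own number. For members the block lowered the SE, from 0.66 to 0.21 for Fn1 and from 1.00 to 0.77 for Spp1. The labels do not say whether the numbers pair the samples, and these values do not settle it. With voom on whole reads 1 gene, Fetub, chosen after its values were seen, passed an adjusted p of 0.05. Leaving out 1 tumor gave 0 to 12 such genes (12 without IgG 1). An unadjusted p under 0.05 was reached by 965 to 2688 genes (6.42% to 17.8% of all), 0 to 3 members and 2 to 9 pairs. The groups did not overlap for 0 to 3 members, against 22.9% to 35.5% of all genes. The members' median log2 fold change in these fits was 0.19 to 0.87. The log2 ratio difference lay between -1.55 and -0.32 for Thbs1 to Thbs2 and between -1.33 and -0.57 for Ccn1 to Ccn2. Log2 fold changes reversed for Spp1 (-0.36 to 1.62), Postn (-0.062 to 0.85) and Tnc (-0.49 to 0.62) without IgG 3, for Tnc also without anti-PD-1 1 (-0.15), and for Ccn1 (-0.45 to 0.15) without IgG 1 or anti-PD-1 3 (0.14). The range was 0.27 to 1.00 for Sparc, 0.19 to 1.36 for Fn1, 0.07 to 0.88 for Fbn1, 0.20 to 1.24 for Thbs2, 0.49 to 1.196 for Ccn2 and -0.70 to -0.09 for Thbs1. Of 23 list genes with an unadjusted p under 0.05, 8 kept it in each fit that left out 1 tumor and 15 did not. The cause was not tested.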

Other observations

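Among the other cell type markers, the mean log2 value of macrophage genes was higher in anti-PD-1-treated tumors for 12 of 12 tested, with a median log2 fold change of 0.32, against 50.8% higher and a median of 0.01 over all genes. The tumors of the 2 groups overlapped in the summed macrophage markers, at 701, 938 and 432 FPKM with IgG and 947, 633 and 930.3 FPKM with anti-PD-1. Adgre1 (a macrophage surface marker) had a log2 fold change of 0.005 and Fcgr1 of 0.002, and the mean FPKM of Fcgr1 (4.04 with IgG, 4.02 with anti-PD-1) and Cd14 (178 and 169.7) was lower with anti-PD-1. Of these, Cd68 alone had an unadjusted p under 0.05, at 18.3, 15.2 and 13.8 FPKM with IgG and 22.1, 30.7 and 29.3 FPKM with anti-PD-1 (log2 fold change 0.76, limma adjusted p = 0.344). Endothelial genes had a lower mean log2 value for 9 of 10, none at an unadjusted p under 0.05, with a median of -0.20. Skeletal muscle genes had a higher mean log2 value for 8 of 8, none at that p, with a median of 0.72, although the mean FPKM of Mb was 6.63 with IgG and 6.43 with anti-PD-1.

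Of luminal epithelial genes 6 of 10 had a higher mean log2 value, with a median of 0.34, and Krt19 (-2.03) and Esrp1 (-0.60) were lower at an unadjusted p under 0.05. The summed luminal markers did not overlap, at 2315 to 3133 FPKM with IgG and 3172 to 4093 FPKM with anti-PD-1. Of the 10 genes, 3 had groups that did not overlap (18.1% of all genes), Epcam and Erbb2 higher and Krt19 lower with anti-PD-1, with log2 fold changes of 0.43 for Epcam and 0.34 for Erbb2 (limma adjusted p = 0.462 and 0.424). Epcam and Erbb2 were named after their values were seen. Krt19 measured 77.9 FPKM in IgG 2 and 1.70 to 7.84 FPKM elsewhere, and was at -0.96 without IgG 2. With 1 tumor left out, its unadjusted p from limma was up to 0.134 and that of Esrp1 up to 0.137. Of basal and myoepithelial genes 8 of 10 were tested, with a median of -0.39, Dsg3 (1.43) higher and Krt17 (-0.66) lower. Of pericyte and smooth muscle genes 9 of 10 were tested, with a median of -0.01 and Mylk (0.90) higher. Of chondrocyte genes 6 of 10 were tested, with a median of 0.78, Col11a2 (1.77) and Cnmd (2.29) higher, and Matn1 and Hapln1 listed at 0 in each tumor. Of osteoblast genes 2 of 8 were tested, with a median of -0.49 and Alpl (-0.90) lower, and Ibsp and Sost were listed at 0. The other lists had few tested genes and none at an unadjusted p under 0.05: 4 of 10 adipocyte genes (median -0.36), 2 of 9 T cell genes (-0.37) and 2 of 7 B and plasma cell genes (0.09). Without IgG 3 Cnmd was at 1.45, and without anti-PD-1 2 Mylk was at 0.56. Of the genes named here by their p, Cd68, Dsg3 and Col11a2 kept an unadjusted p under 0.05 in each fit that left out 1 tumor. None of the genes named here passed an adjusted p of 0.05.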
